A study of Homo sapiens with 15 samples.

Results

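The RNAs described here are the nuclear-encoded transcripts whose share of the library was higher in all 4 kinds of extract pellet than in unpelleted extract. They were 143 of 16612 genes kept for analysis, out of 57500 in the count tables. A gene was kept where every one of the 5 conditions had 2 or more libraries with 10 or more counts. Levels are CPM, a gene's count scaled by the library's total, and for each pellet the log2 ratio of its mean CPM to the mean input CPM was centred on the median of the kept genes. A member had a centred log2 ratio of at least 0.8 in every pellet and a mean input CPM of at least 2, and 13841 kept nuclear genes had that input level. The members were thus chosen by their measured ratios to input, which are given as a description with no test.

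The extracts came from U2OS, a human osteosarcoma cell line, and were incubated for 2 h with no addition (mock), with 250 nM dsRNA, with 2 µg/ml silvestrol, or with 1% PEG. In such extracts dsRNA can engage the kinase PKR and halt translation initiation, silvestrol inhibits the helicase eIF4A, and PEG is a molecular crowder. No incubation time is given for the input extract, so pelleting and incubation cannot be told apart in the ratios of pellet to input. Pellets and input extract were sequenced after poly(A) selection, with 3 libraries per group that the labels call biological replicates, 15 in all. The labels of all libraries give the cells as wild type, while the study's text speaks of YFP-G3BP1 condensates, so the presence of the tagged protein is not known from the labels.

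Stress granules are cytoplasmic condensates of untranslated mRNPs, nucleated by RNA and by RNA-binding proteins such as G3BP1. Long and poorly translated mRNAs are known to be over-represented in them. A pellet made by centrifugation can also hold other dense material, including membranes, organelles and precipitated protein, so that enrichment in a pellet does not by itself place an RNA in a granule.

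Library totals ranged from 15341973 to 46939993 counts (median 35584710), and the PEG libraries and input replicate 1 (23101982) were the smallest. Markers of mesenchymal and bone-lineage cells (VIM, RUNX2, SPARC, COL5A1) were present, and of the epithelial markers CDH1 was at 0.496 CPM and EPCAM at 10.0 CPM in input. Input replicate 1 stood apart from the other input libraries, and replicate 1 of the other groups deviated with it. Its deviations from the group mean correlated at 0.76, 0.68, 0.69 and 0.28 with those of mock, dsRNA, silvestrol and PEG replicate 1. With replicates 2 and 3 of mock, dsRNA and silvestrol the correlations were -0.65 to -0.56. Deviations within a group cancel out, so these negative values follow in part from the positive ones. Across 16529 kept genes, the Spearman correlation of G+C content with the log2 ratio of a library to the input mean was -0.33 in input replicate 1, and 0.21 and 0.38 in the others. The points of these correlations share the input mean and the library. Of the 143 members, 119 had their lowest input level in that library, and its median member level lay at -0.53 on the log2 scale against the mean of the other inputs (kept genes -0.10). Without it, but with the replicate 1 pellets kept, the rule gave 113 genes, of which 81 were among the 143. All 143 still had ratios above 0 in every pellet, with medians of 0.87 in mock, 0.95 with dsRNA, 0.91 with silvestrol and 1.00 with PEG.

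With all libraries, the members' median centred log2 ratio was 1.01 in mock (range 0.80 to 2.03), 1.07 with dsRNA (0.80 to 1.65), 1.03 with silvestrol (0.80 to 1.63) and 1.07 with PEG (0.80 to 3.37). The smallest of the 4 values lay in mock for 59 members, in PEG for 45, in silvestrol for 30 and in dsRNA for 9. The largest lay in PEG for 67 and in dsRNA for 54. Input levels ran from 2.00 to 398 CPM (median 20.3 CPM). Just inside the threshold were APBA3, TBRG4 and PPP2R3B, and just outside it were ZBTB48 (smallest ratio 0.795), E4F1 (0.795) and MPHOSPH8 (0.793).

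The rule was met by few of the genes enriched in any single pellet. At the same threshold and input level, 1148 genes passed in mock, 1553 with dsRNA, 1378 with silvestrol and 1962 with PEG. Mock, dsRNA and silvestrol shared 1089 genes, of which 13.1% also passed with PEG. A further 73 of the 1089 were at -0.8 or below with PEG, and 43 genes were at -0.8 or below in all 4 pellets. The plot of mock against PEG ratios shows these sets.

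**Figure D1:**
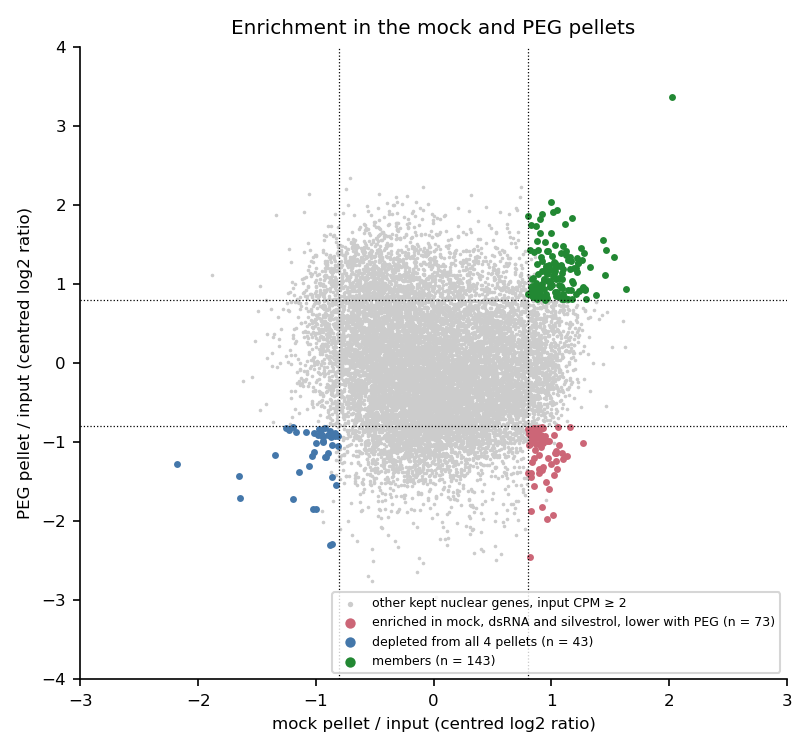
Centred log2 ratio of the mock pellet (x axis) and of the PEG pellet (y axis) to input for kept nuclear genes with at least 2 CPM in input; each point is a gene and the dotted lines mark 0.8 and -0.8. The 143 members (green) fill the upper right corner, with RN7SL2 alone at 2.03 and 3.37, and the 73 genes enriched elsewhere but low with PEG (red) fill the lower right.

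All 3 mock libraries lay above all 3 input libraries for 132 of the 143 members, as for 28.4% of all kept genes. With dsRNA this held for 136 members (kept genes 30.0%), with silvestrol for 137 (29.8%) and with PEG for 131 (18.8%). All 12 pellet libraries lay above all 3 inputs for 126 members and for 683 kept genes. The rule used these ratios, so nothing is read from the members' counts. When each pellet was set against the input of the same replicate number, every member was above 0 in every pair except 1 member in mock replicate 1. Pairs with replicate 1 gave the highest medians, for example 1.38 with dsRNA against 0.89 and 1.01 in the other dsRNA pairs.

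The PEG values depend on the centring. The median kept gene had a log2 ratio to input of -0.35 with PEG, and of 0.06, 0.04 and 0.05 in mock, dsRNA and silvestrol. Without centring all 143 members were still above 0 with PEG, from 0.45 to 3.01, but 62 of them reached 0.8. CPM are shares of a library, and the amount of RNA in a pellet was not measured, so these ratios are relative to other RNAs.

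**Figure D2:**
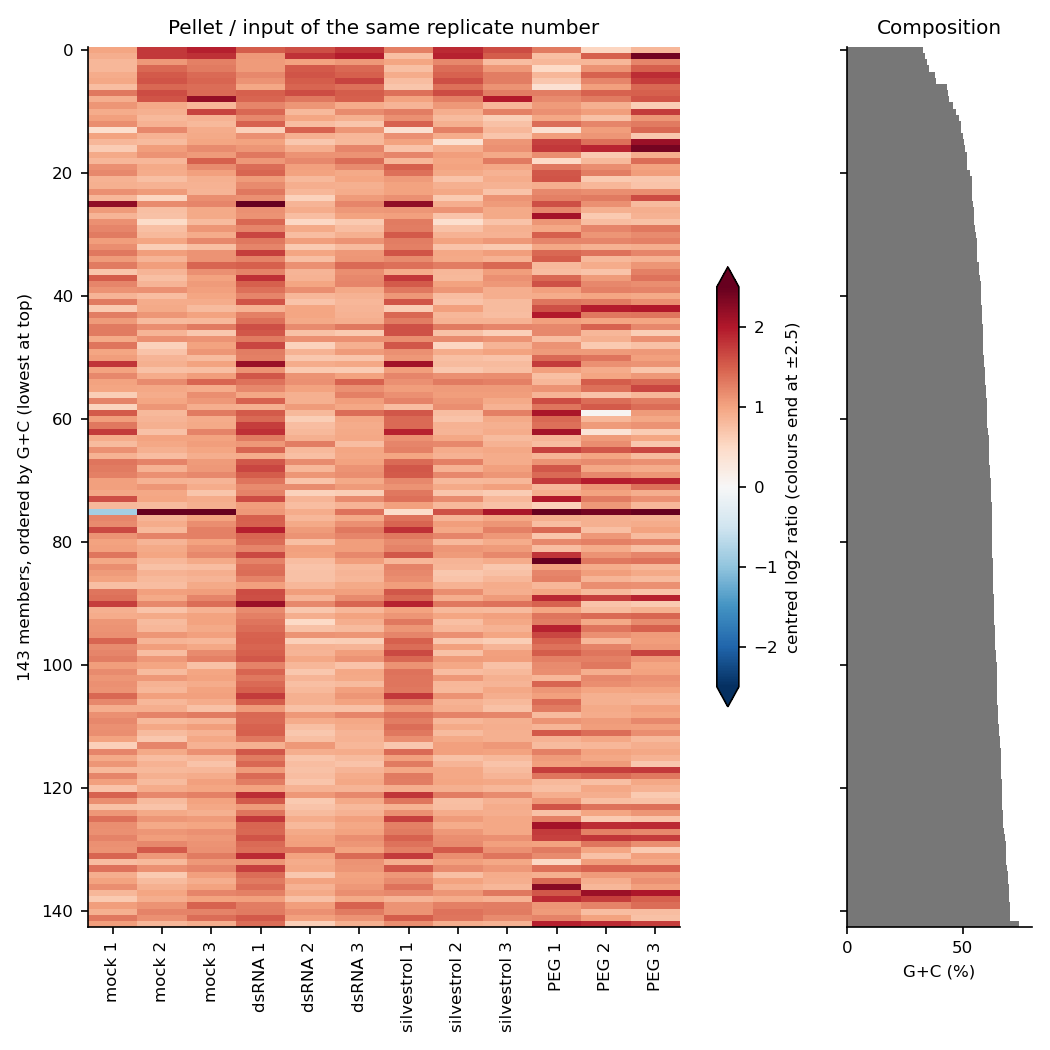
Centred log2 ratio of each pellet library to the input of the same replicate number for all 143 members (rows, ordered by G+C content, lowest at the top), with G+C content in percent at the right; colours end at 2.5 in either direction. All cells but 1 are above 0, the exception being RN7SL2 in mock replicate 1 at -0.85.

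The members shared a base composition that the rule did not use. The median G+C content of their longest transcripts was 62.2%, against 48.8% over the kept genes. G+C was 60% or more in 87 members (60.8%, kept genes 14.5%) and under 45% in 9 (6.29%, kept genes 35.7%). Among kept nuclear genes with at least 2 CPM in input, members made up 0.276% below 40% G+C, 0.101% from 40% to 45% and 0.206% from 45% to 50%. They made up 0.627% from 50% to 55%, 1.37% from 55% to 60%, 3.43% from 60% to 65% and 7.76% at 65% and over. The same composition was seen without input replicate 1, where the median G+C of the 113 genes was 61.2%. It was not confined to the members: the 73 genes enriched in the other pellets but low with PEG had a median of 60.6%, and the 43 depleted genes had 40.3%.

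Composition is also a property along which whole libraries differed. Over kept genes, the Spearman correlation of G+C with the ratio to the input mean was 0.35 to 0.46 in the mock, dsRNA and silvestrol libraries and 0.27 to 0.30 with PEG. When each pellet was centred on a smooth G+C trend in place of the median, 27 of the 143 members still met the rule, none of the 87 with 60% G+C or more and all 9 with less than 45%. All 143 members stayed above 0 in every pellet with that centring, with medians of 0.63 in mock, 0.63 with dsRNA, 0.62 with silvestrol and 0.81 with PEG. The part of this trend in the members' ratios was not tested.

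The coding sequences carried this composition most at codon position 3, where many changes leave the amino acid as it is. For 123 protein-coding members, the median G+C was 65.6% in the coding sequence, 78.9% at codon position 3, 71.4% in the 5′ UTR (113 members with at least 30 bases) and 56.0% in the 3′ UTR (120 members). Over 13486 kept protein-coding genes the medians were 52.8%, 59.9%, 66.0% and 42.5%. At least 75% G+C at position 3 was found in 85 members (69.1%, kept genes 22.0%). The median 3′ UTR of a member was 408 bases long, against 983 bases, and the median coding sequence 1236 against 1440 bases.

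The following stretches show the extremes among protein-coding members. Each is a 60-base, in-frame stretch of 1 coding exon (GENCODE 29, GRCh38) whose G+C is nearest that of the whole coding sequence, in mRNA sense with G and C in capitals. The first set holds the 3 members with the lowest coding G+C, at 36.9% (MNS1), 37.2% (ESF1) and 38.1% (HMGN5).
MNS1, chr15:56464188-56464247, minus strand, exon 2: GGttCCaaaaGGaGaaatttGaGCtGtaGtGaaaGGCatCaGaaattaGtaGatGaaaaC
ESF1, chr20:13783012-13783071, minus strand, exon 2: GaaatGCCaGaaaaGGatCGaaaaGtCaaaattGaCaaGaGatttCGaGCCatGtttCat
HMGN5, chrX:81116273-81116332, minus strand, exon 6: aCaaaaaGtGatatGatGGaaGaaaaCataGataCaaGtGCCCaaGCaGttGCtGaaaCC
The second set holds the 2 with the highest coding G+C, at 77.0% (CTU1) and 75.6% (PCSK1N).
CTU1, chr19:51104495-51104554, minus strand, exon 2: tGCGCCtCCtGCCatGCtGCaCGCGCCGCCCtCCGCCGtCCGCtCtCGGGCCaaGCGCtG
PCSK1N, chrX:48835452-48835511, minus strand, exon 1: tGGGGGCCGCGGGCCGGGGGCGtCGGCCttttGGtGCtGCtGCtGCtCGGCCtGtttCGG
At codon position 3, 93.4% of the bases of CTU1 are G or C, and 22.3% of those of HMGN5.

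Members were not long. Their median exon length was 2848 bases, against 4428 over the kept genes, 4348 in the 43 depleted genes and 5889 in the 73 genes enriched elsewhere but low with PEG. They had a median of 6 exon blocks, the 73 genes 19 and the kept genes 9. Whole libraries also differed along length. Over kept genes, the Spearman correlation of exon length with the ratio to the input mean was -0.48 to -0.43 with PEG. It was 0.14 to 0.19 in the mock, dsRNA and silvestrol libraries. The part of this trend in the members' length was not tested. The plot of length and composition shows most members on the G+C-rich side, over a range of lengths.

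**Figure D3:**
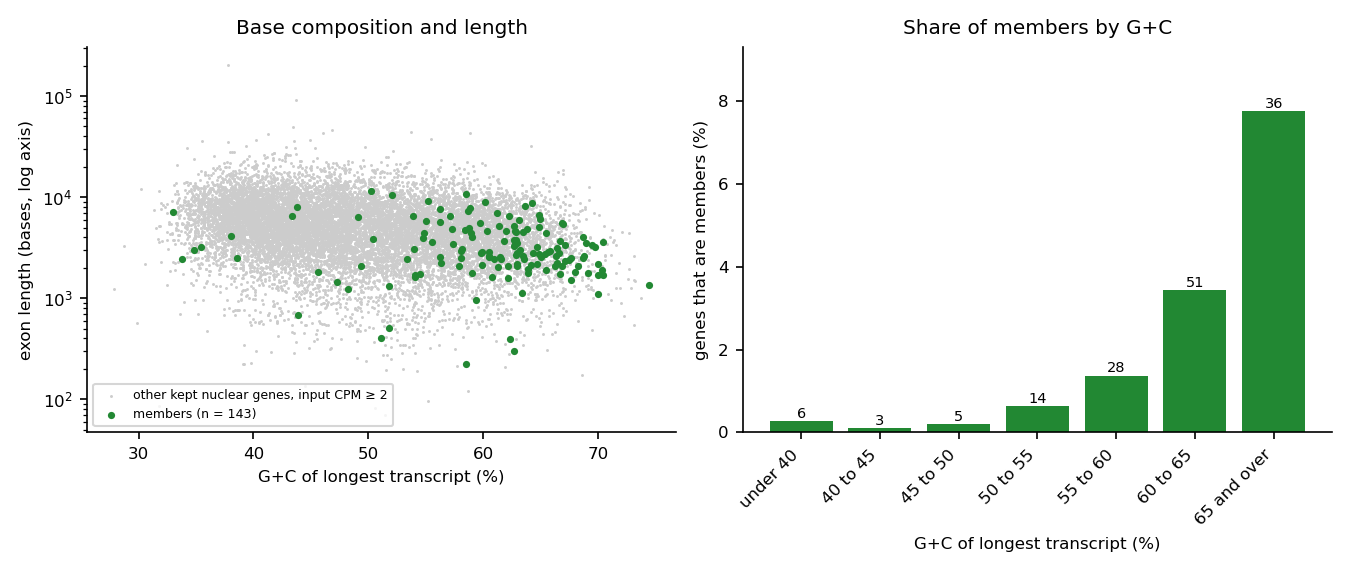
Left, G+C content in percent (x axis) and exon length in bases (y axis, log scale) of the 143 members (green) and of other kept nuclear genes with at least 2 CPM in input (grey). Right, the percentage of such genes that are members in each G+C class, with the number of members above each bar, which is 0.276% below 40%, lowest at 0.101% from 40% to 45% and highest at 7.76% at 65% and over.

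Secreted factors and receptors included the members with the highest input levels. BMP4 (chromosome 14:53949736-53958761, minus strand), a bone morphogenetic protein, had the highest input level, at 295, 464 and 434 CPM in replicates 1, 2 and 3. Its levels were 594, 875 and 812 CPM in mock, 708, 892 and 830 CPM with dsRNA, 637, 875 and 806 CPM with silvestrol, and 497, 610 and 524 CPM with PEG. Every pellet library lay above every input library, the PEG ones by the least, and the centred fold over input was 1.83, 1.98, 1.87 and 1.75 in the 4 pellets. SSC4D, a protein with scavenger receptor domains, followed with 107, 205 and 196 CPM in input and 231, 369 and 362 CPM in mock. METRNL, a secreted meteorin-like factor, had 62.2, 76.1 and 85.4 CPM in input, 99.4, 168 and 165 CPM in mock and 143, 164 and 167 CPM with PEG. METRN, its relative in the same family, was a member too, with centred log2 ratios of 0.82 in mock and 1.74 with PEG. GDF15, a stress-induced cytokine, was low in replicate 1 of every group, less so with PEG. It had 3.59, 21.5 and 21.2 CPM in input and 7.67, 39.3 and 41.9 CPM in mock, so its mock and input libraries overlapped. With PEG it had 25.4, 39.8 and 40.6 CPM, all above input. The ligands WNT6 (ratios 0.82 to 1.29) and NRTN (1.05 to 1.94), progranulin (GRN, 1.04 to 1.12) and the receptors EPOR (1.00 to 1.25), IL27RA (0.88 to 0.96) and S1PR5 (0.96 to 1.27) were at lower input levels, from 3.86 to 58.1 CPM.

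RGS16, which accelerates GTP hydrolysis by G-protein alpha subunits, had 101, 198 and 179 CPM in input, and 251, 391 and 374 CPM in mock. Its PEG libraries had 268, 355 and 273 CPM, again with no overlap with input. RGS14 was the other member among 11 RGS genes with at least 2 CPM in input, with ratios of 1.15 to 1.31. RGS10 showed the reverse in the pellets without PEG, with -0.90 in mock and 0.94 with PEG, and RGS12 was at 0.86 in mock and -0.10 with PEG.

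GSDMD, the pore-forming protein of pyroptosis, had 88.7, 153 and 159 CPM in input, and 211, 287 and 313 CPM in mock. With dsRNA it had 250, 262 and 282 CPM, with silvestrol 240, 279 and 293 CPM and with PEG 219, 253 and 252 CPM, all above every input. The ratios of BBC3, the BH3-only protein PUMA, were 0.89 to 1.13, those of TRADD, the adaptor of TNF receptor 1, 0.97 to 1.11, and those of the peptide transporter subunit TAP2 0.92 to 1.29.

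Several members encode transcription factors. PITX1, a homeodomain protein of hindlimb and pituitary development, had 86.8, 67.3 and 69.8 CPM in input, 161, 121 and 153 CPM in mock and 112, 102 and 99.2 CPM with PEG. Its input was highest in replicate 1, where those of most members were lowest. MSX1, another homeodomain factor, had nearly equal inputs of 24.2, 21.1 and 21.6 CPM and 52.5, 49.7 and 61.2 CPM in mock. MXD3, a MAX partner, had 57.7, 82.9 and 87 CPM in input and 171, 181 and 206 CPM with PEG. NKX2-5 (0.90 to 1.01), KLF15 (0.81 to 1.14), HMX2 (1.03 to 1.17), CEBPD (0.88 to 1.64) and the nuclear receptor ESRRA (0.82 to 1.22) were also members. Of 111 listed developmental transcription factors with at least 2 CPM in input, 3 were members, and of 483 zinc finger genes 1 was (ZNF446, 0.82 to 0.91). Over all kept nuclear genes at that input level, 143 of 13841 were members.

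Some members encode enzymes that modify tRNA. Both subunits of the enzyme that adds sulfur to the wobble uridine of some tRNAs were members. CTU1 had 9.09, 12.1 and 12.9 CPM in input and 23.3, 25.7 and 28.3 CPM in mock, and CTU2 had 16.8, 21.6 and 22.3 CPM in input and 40.7, 37.1 and 39.4 CPM in mock. Neither overlapped between input and any pellet. DUS1L, a dihydrouridine synthase, had inputs of 76.7, 77.5 and 76.5 CPM, and its pellets held 137 to 152 CPM in mock and 123 to 128 CPM with PEG. TRMT61A, the catalytic subunit of a tRNA adenosine methyltransferase, had ratios of 0.99 to 1.04, TSEN54 of the tRNA splicing endonuclease 0.87 to 1.29 and the pseudouridine synthase homologue RPUSD1 0.89 to 0.98. These genes were grouped after their values had been seen, and no test of the group was made.

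Enzymes of matrix and glycan synthesis were P3H3, B3GALT6, B3GAT3, B4GAT1 and GALNT8. P3H3, a collagen prolyl 3-hydroxylase family member, had 55.1, 98.3 and 108 CPM in input, 142, 225 and 256 CPM in mock and 133, 166 and 172 CPM with PEG. B3GALT6, which adds a galactose of the proteoglycan linker, had 10.5, 13 and 13.6 CPM in input and between 21.3 and 33.3 CPM in the pellets. Of 58 Golgi glycosyltransferases and glycosaminoglycan enzymes on a list with at least 2 CPM in input, 2 were members (B3GALT6 and B3GAT3). Among all kept nuclear genes at that input level, 143 of 13841 were. B4GAT1 and GALNT8 were not on the list. The list's median ratio was 0.51 in mock and -0.01 with PEG, where the kept genes are at 0 by construction.

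The 6 protein-coding members with less than 45% G+C were HMGN5, NKAP, LARP7, ESF1, MNS1 and DNAJC2. HMGN5, a nucleosome-binding protein, had 164, 86.2 and 88.3 CPM in input, and 333, 301 and 322 CPM in mock. Its PEG libraries, 250, 180 and 349 CPM, spread most, but all lay above input. Its input was highest in replicate 1. NKAP, a nuclear protein that takes part in transcription and splicing, had the highest smallest ratio, 1.43. It had 10.7, 12.2 and 13.4 CPM in input, 29.1, 39 and 36.7 CPM in mock and 23.6, 25 and 27.8 CPM with PEG. LARP7, which binds the 7SK RNA, had 63.4, 46 and 45.6 CPM in input and 131, 137 and 125 CPM in mock. ESF1, a nucleolar factor of rRNA processing, had ratios of 1.04 to 1.33, MNS1, a protein of meiosis and cilia, 1.22 to 1.43, and DNAJC2, a ribosome-associated J-domain protein, 0.93 to 1.24.

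Without input replicate 1, HMGN5 (smallest ratio 1.73), LARP7 (1.42), MNS1 (1.41) and NKAP (1.38) were among the 5 highest members, together with MTATP6P1 (1.51). Without that library 62 members no longer met the rule, and among them were BMP4 (smallest ratio 0.67), SSC4D (0.63), METRN (0.69), GDF15 (0.43), WNT6 (0.58), GRN (0.74), IL27RA (0.73), GSDMD (0.74), BBC3 (0.67), TAP2 (0.73), KLF15 (0.43), CEBPD (0.60), ESRRA (0.70), ZNF446 (0.58), PCSK1N (0.67) and GALNT8 (0.76), and, just under the threshold, METRNL (0.799), RPUSD1 (0.797) and CTU2 (0.793). With G+C-trend centring HMGN5, NKAP, LARP7 and MNS1 led the list, at 1.57, 1.53, 1.47 and 1.47.

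**Figure D4:**
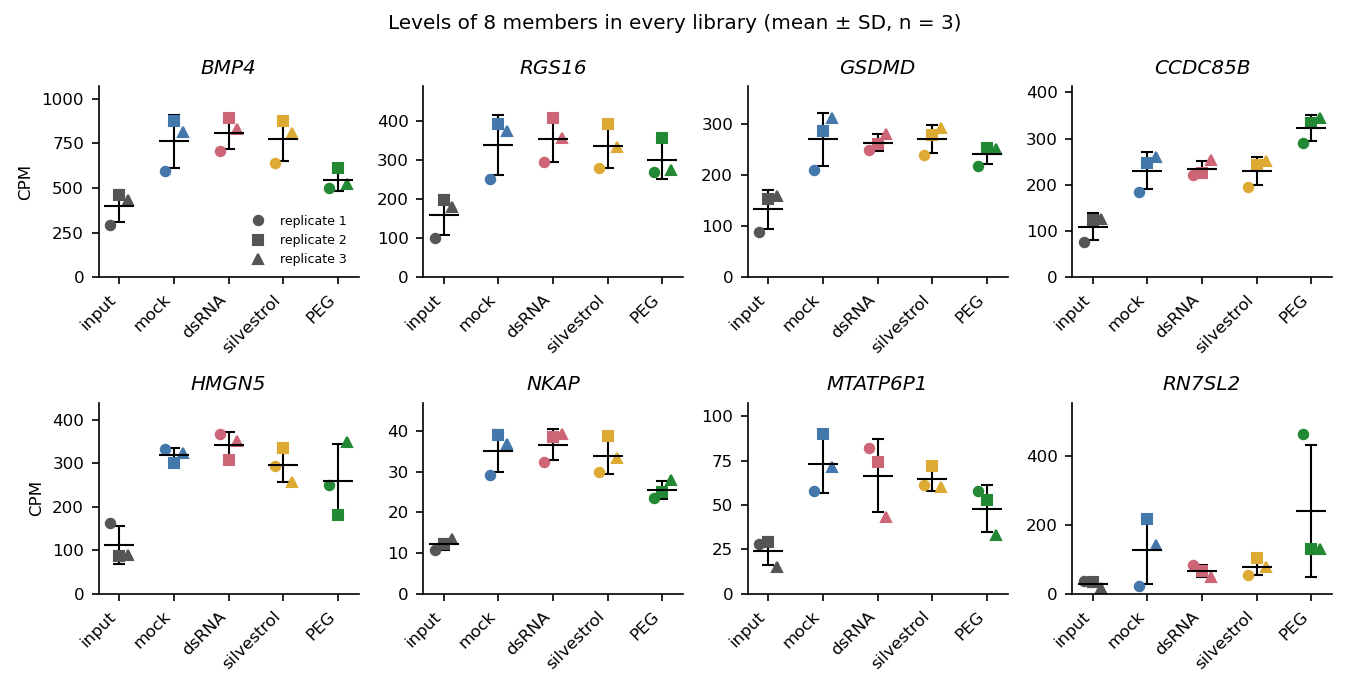
Level in CPM (y axis) of 8 members in all 15 libraries by group (x axis); symbols are the replicates and bars the mean ± SD (n = 3). For 7 of the 8 every pellet library lies above every input library, and RN7SL2 is the exception, with mock replicate 1 at 22.8 CPM below the inputs of replicates 1 and 2.

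Mitochondrial transcripts could not be members, but a nuclear copy of one was. MTATP6P1 (chromosome 1:633696-634376, plus strand) is an unprocessed pseudogene of MT-ATP6 and had 28.3, 29.2 and 15 CPM in input, 57.7, 89.8 and 71.2 CPM in mock and 57.8, 52.9 and 33 CPM with PEG. MT-ATP6 itself had a mean input of 513 CPM and ratios of 1.27 to 1.73. The transcripts of both are 681 bases long and differ at 10 bases (98.5% identity), so reads of one could be counted for the other. Bases 116 to 175 of each, with the 3 bases that differ in capitals, are shown because they hold the most differences in any 60 bases.
MT-ATP6: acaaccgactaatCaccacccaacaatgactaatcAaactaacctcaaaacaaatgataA
MTATP6P1: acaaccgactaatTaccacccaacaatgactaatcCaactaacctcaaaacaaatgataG
All 4 ratios were at least 0.8 for 7 of the 13 mitochondrially encoded mRNAs (MT-ND2, MT-CO2, MT-ATP8, MT-ATP6, MT-CO3, MT-ND3 and MT-CYB). MT-CO1 (-0.20 with PEG) and MT-ND5 (-0.12 in mock) were among those that were not.

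RN7SL2 (chromosome 14:49862550-49862849, minus strand) encodes a copy of 7SL, the RNA polymerase III transcript of the signal recognition particle. It had the highest ratios in mock (2.03) and PEG (3.37) and the widest spread. Its levels were 37.8, 33.9 and 18.4 CPM in input, 22.8, 218 and 143 CPM in mock, 85.1, 65.4 and 48.5 CPM with dsRNA, 56.1, 105 and 77.3 CPM with silvestrol, and 464, 131 and 132 CPM with PEG. Mock overlapped input and the other pellets did not. Its 300-base transcript is 98.3% identical to RN7SL1, which is listed at 0 in all 15 libraries, and 96.0% identical to RN7SL3, at 1.42 CPM in input, so its counts are uncertain between copies. 7SL lacks the usual poly(A) tail, and how its counts entered poly(A)-selected libraries was not tested.

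The other members without a coding sequence were 12 unprocessed pseudogenes including MTATP6P1, 3 antisense RNAs, 2 lincRNAs and 2 further noncoding transcripts. The annotation gives the pseudogenes ANKRD20A8P (0.94 to 1.65) and ANKRD20A9P (0.98 to 1.08) as copies of 1 family, and another copy, ANKRD20A5P, was at 0.00 to 0.12 in mock, dsRNA and silvestrol. The lincRNA LINC01711 had 4.24, 8.07 and 7.95 CPM in input and 15.9, 15.4 and 16.4 CPM in mock. Of 311 antisense and 185 LINC genes on lists with at least 2 CPM in input, 2 each were members. No member was found among 82 cytosolic ribosomal protein genes, 25 small nucleolar RNA host genes, 23 histone genes or 17 glycolytic genes. Nor was any of 7 lncRNAs on a list that includes MALAT1 and NEAT1. Over all kept nuclear genes at that input level 143 of 13841 were members, so lists of these sizes would hold few by that share. The ribosomal protein list was at a median of -0.59 in mock and 1.33 with PEG.

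Some members lay near each other. Chromosome 16 held 18 members (12.6%, kept genes 4.59%) and chromosome 19 held 17 (11.9%, kept genes 6.93%), and 14 pairs of consecutive members lay within 100 kb of each other. These pairs are consecutive among members only, with gaps of up to 84726 bases, and the share of kept genes in such pairs was not counted. METRN, HAGHL, CIAO3 and RPUSD1 are consecutive members on chromosome 16 between 715115 and 788397. On chromosome 8, SLC52A2, FBXL6, ADCK5, PPP1R16A and MFSD3 are so between 144354135 and 144511213. HAGHL and CIAO3 overlap by 1347 exonic bases on opposite strands, and FBXL6 and SLC52A2 by 1069. Exonic overlap with an antisense gene was present in 54 members (37.8%, kept genes 38.8%) and with a same-strand gene in 20 (14%, kept genes 13.9%). The strand setting of the counting is not given, so reads of such partners cannot be told apart. In 20 members at least 20% of the exon length was shared, and in 7 of them the other gene was the more abundant in input.

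The pellets were then compared with each other, with edgeR's quasi-likelihood test over all kept genes and Benjamini-Hochberg adjustment. The rule sets a floor in both pellets of each comparison, which limits the differences that members can show. No member was called between dsRNA and mock, of 0% called among all genes. At an unadjusted p under 0.05 there were 0 members and 374 genes. DESeq2 called 0 members and 64 genes. With the replicate number as a block, edgeR called 25 genes higher and 441 lower with dsRNA, 0 members among them, and 11 members and 2101 genes were at an unadjusted p under 0.05. Without the block the members' log2 differences ran from -0.92 to 0.20, with a median of 0.06 (all genes 0.01), and the lowest was that of RN7SL2. The median became -0.03 without mock replicate 1.

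Between silvestrol and mock again no member was called, of 0% among all genes, with 0 members and 35 genes at an unadjusted p under 0.05 and 0 genes called by DESeq2. With the block 0 members and 2 genes were called, and 7 members and 1078 genes were at an unadjusted p under 0.05. Without it the members' differences ran from -0.67 to 0.18 with a median of 0.03. It turned to -0.06 without mock replicate 1 and to -0.02 with a G+C offset. The difference between dsRNA and silvestrol had a median of 0.03, 0 called members, of 0% among all genes, and 0 members and 330 genes at an unadjusted p under 0.05. DESeq2 called 0 members and 68 genes. With the replicate number as a block, 3 members were called higher with dsRNA, of 0.235% of all genes. They were ESF1 (log2 difference 0.26 ± 0.06 (SE), adjusted p = 0.0034 in edgeR), DNAJC2 (0.20 ± 0.05, adjusted p = 0.043 in edgeR) and LARP7 (0.19 ± 0.05, adjusted p = 0.0495 in edgeR), which are named for this small count after it was seen. All 3 belong to the 9 members under 45% G+C. With the block and G+C offset 5 members were called higher, of 0.596% of all genes. They were these 3, MNS1 and ZRSR2, whose G+C is 49.4%.

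With PEG, 25 members were called higher than in mock (31.3% of all genes) and 4 lower (32.2%). Leaving out PEG replicate 3 gave 16 higher and 0 lower (28.3% and 25.7% of all genes). Leaving out PEG replicate 2 gave 18 and 1 (28.1% and 25.2%), and leaving out mock replicate 1 gave 25 and 14 (34.1% and 34.8%). The members' median log2 difference was 0.12, against -0.03 over all genes, and their differences ran from -0.65 to 1.38. The highest, that of RN7SL2, was not called (1.38 ± 0.67 (SE), adjusted p = 0.097 in edgeR). The 25 that rose had a median exon length of 2354 bases, the 4 that fell 4915 and the 114 not called 2851. Among members as short as the shortest 25% of kept genes, up to 2564 bases, 14 of 57 rose and 0 fell, while among those as long as the longest 25%, from 6939 bases, 1 of 13 rose and 1 fell. Over all kept genes 54.7% rose and 9.61% fell in the shortest class, and 11.3% rose and 59.1% fell in the longest.

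The largest rises were those of CCDC12, a spliceosome-associated protein (log2 difference 1.11 ± 0.12, adjusted p = 3.8e-05 in edgeR), ENSG00000258199 (1.11 ± 0.24, adjusted p = 0.0026 in edgeR), OXLD1 (1.02 ± 0.12, adjusted p = 5.8e-05 in edgeR), PCSK1N, an inhibitor of prohormone convertase (0.99 ± 0.22, adjusted p = 0.0028 in edgeR), and METRN (0.98 ± 0.16, adjusted p = 0.00052 in edgeR), with SE and n = 3 per group. CCDC12 had 140, 152 and 150 CPM in mock and 221, 221 and 249 CPM with PEG. OXLD1 had 41.9, 41.7 and 41.6 CPM in mock and 57.6, 64.1 and 62.6 CPM with PEG, so neither gene overlapped between the pellets. PCSK1N did overlap, with 69.8, 116 and 110 CPM in mock and 109, 172 and 139 CPM with PEG. The 4 members that fell were ANKRD20A8P (-0.65 ± 0.26), PPP1R16A, a phosphatase regulatory subunit (-0.42 ± 0.14), TSEN54 (-0.29 ± 0.11) and SPHK1, a sphingosine kinase (-0.27 ± 0.11), with adjusted p-values in edgeR of 0.049, 0.024, 0.044 and 0.045. All 4 stayed below 0 in every alternative, but 0 of them were still called with the G+C offset or without mock replicate 3 or PEG replicate 3, and 1 with DESeq2's size factors, with another filter on low counts, with the replicate block and G+C offset, or without mock replicate 2, PEG replicate 1 or PEG replicate 2.

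The split between rises and falls depends on the scaling. With library size only, in place of TMM, the median of all genes moved to -0.49 and that of the members to -0.34, and 5 members were called higher (18.8% of all genes) and 57 lower (49.8%). Of the 25 members that rose with TMM, 19 stayed above 0 and 5 were still called. These were CCDC12, OXLD1, METRN, CCDC85B and ENSG00000258199, while PCSK1N was no longer called (0.51, adjusted p = 0.067 in edgeR). Relative to the median of all genes, the members' median was 0.16 higher with TMM and 0.14 higher with library size only. With TMM this differed by length class. In the shortest class the members' median was 0.19 and that of kept genes 0.73, and in the next 0.09 and 0.18. In the third it was 0.11 against -0.24, and in the longest 0.10 against -0.60. These classes held 57, 47, 26 and 13 members.

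**Figure D5:**
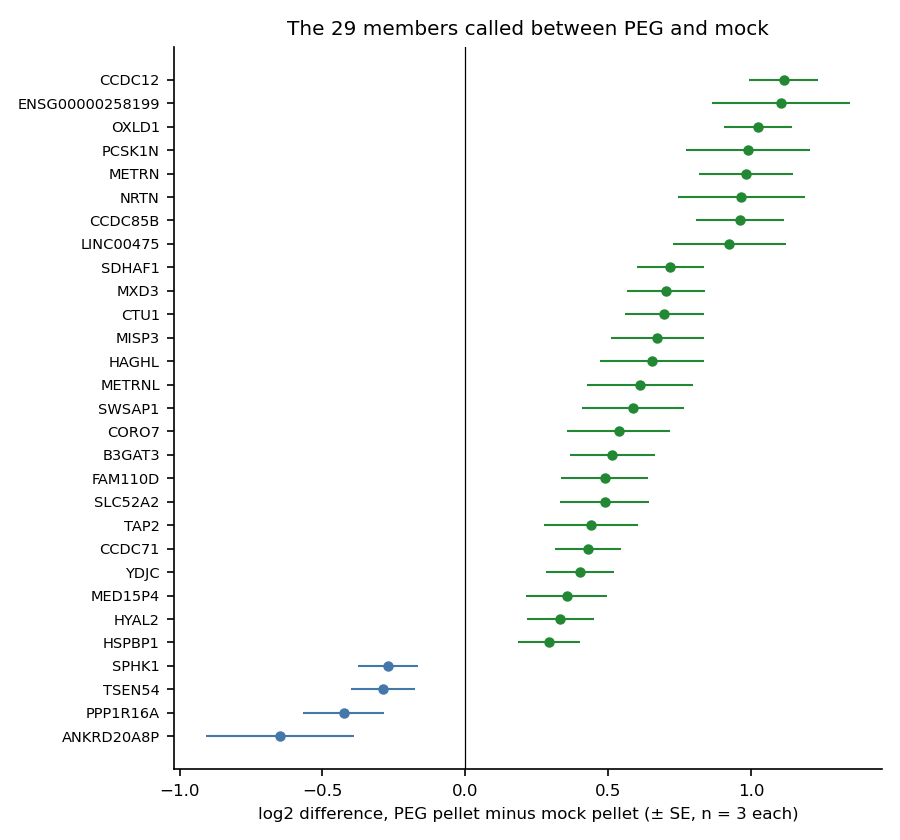
log2 difference between the PEG and mock pellets, in TMM-scaled counts ± SE (x axis, n = 3 each), for the 29 members called at an adjusted p under 0.05 (y axis). The 25 green points are higher with PEG, up to 1.11 for CCDC12, and the 4 blue ones lower; with library size only, 6 of the 25 are at or below 0.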

How the data were processed

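Input extract and pellets of 4 reactions were sequenced (poly(A) RNA, 15 libraries, 3 per group). The authors deposited raw counts of reads per gene. The submitters' notes name Trimmomatic 0.36, STAR 2.5.2b, featureCounts of Subread 1.5.2 and GRCh38. The strand setting and annotation release are not given in the sources used here, so overlapping and near-identical genes may share reads.

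Members, lists and named genes were chosen with earlier results of these data known. Genes were named for input level, smallest ratio, nearness to the threshold, list membership or size of a called difference, and genes beyond these were named by role after their values were seen. Lengths and coordinates are those of the count tables, and symbols, G+C content and sequences come from GENCODE 29 (56898 of 57500 identifiers and all 143 members matched).

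Pellets were compared with edgeR 4.0.16 in R 4.3.3 (quasi-likelihood test, TMM, 6 libraries per fit, 16612 genes, adjusted p under 0.05), and ratios were computed in Python 3.11.15. The fit was tested on counts simulated from the mock libraries, with few genes changed and rises and falls in balance. That setting is unlike PEG against mock, where the calls depended on the scaling. Alternatives were DESeq2 1.42.0, other scalings, filters and thresholds, all libraries in 1 fit, a G+C trend (span 0.3), the replicate block and each library left out. Replicate numbers come from the labels, and same-numbered libraries deviated from their group means together in every pair (correlations of 0.131 to 0.861). Replicates 2 and 3 across different groups also did so (0.109 to 0.583), while replicate 1 ran against both. Deviations within a group cancel out, so part of that opposition is arithmetic. The correlations do not show that replicates 2 and 3 are paired by number, and the block was run as the paired alternative. The fits without the block are the ones reported, unless stated. The p-values measure the spread between 3 libraries, and deeper libraries give the more precise levels.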

Additional observations from a re-analysis of the deposited data

How the results depend on the processing

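The number of members was 67 without centring, 44 at a threshold of 1, 391 at a threshold of 0.6, 45 with G+C-trend centring and 47 with the replicate block and G+C-trend centring. It ranged from 113 (without input replicate 1) to 214 (without input replicate 3) when 1 library was left out, and 66 members stayed whichever of the 15 libraries was left out. With the replicate block alone, pairing each pellet with its input, it was 158. The other alternatives gave 124 to 177. For the calls among members, dsRNA against mock gave 1 higher with the replicate block and G+C offset (ESF1, 0.71% of all genes). The comparison of dsRNA with silvestrol gave 3 higher with the replicate block (0.235%) and 5 with the block and G+C offset (0.596%). PEG against mock gave 62 with library size only (18.8% of all genes higher, 49.8% lower). It gave 48 with the replicate block and G+C offset (32.1% and 36.8%). Over the settings that left out 1 library it gave 16 to 39 (28.1% to 34.1% higher, 25.2% to 34.8% lower). Leaving out PEG replicate 3 gave 16 and PEG replicate 2 gave 19, against 29 with all libraries. The block changed no other call count by more than 1.5 times. The cause of these changes was not tested.

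Limits are the 3 libraries per group, the single input library that stood apart and without which 62 members no longer met the rule, and PEG totals as low as 15341973. Members with low input, near 2 CPM, rest on few counts.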
